A study of Mus musculus with 12 samples.

Results

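The classical histone deacetylases (HDACs) were followed by gene name on a 1-colour Agilent mouse array: all probes named Hdac1 to Hdac10 that were not control spots. The rule found 15 probes of 9 genes among 41174 probes, namely 4 for Hdac9, 2 each for Hdac2, Hdac8 and Hdac10, and 1 each for Hdac1, Hdac3, Hdac4, Hdac5 and Hdac6. The name Hdac7 is absent from the array. It carries 2 probes under the name Hdac7a whose accession belongs to Hdac7, and these are described beside the members without being counted among them. RNA came from untreated mouse embryonic fibroblasts (MEFs), cells cultured from mouse embryos, of 3 Sirt1 genotypes with 4 arrays each: WT, SIRT1 heterozygous (Het), and SIRT1 homozygous cells that the labels also call SIRT1 KO. All cells carry the label female and grew in DMEM (glucose 25 mM, glutamine 4 mM) with 10% FBS, and 500 ng of RNA was labelled for an array. Replicates bear the numbers 1, 2, 3 and 5 in WT and 2, 3, 4 and 5 in Het and KO. The labels do not give the mouse strain, the embryonic age, the deleted part of Sirt1 or whether replicates are separate cultures, so p-values cover only the variation among these arrays, part of which may be technical.

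Histone deacetylases remove acetyl groups from lysines of histones and of many other proteins, which generally compacts chromatin and lowers transcription. The classical enzymes use zinc and fall into class I (Hdac1, Hdac2, Hdac3 and Hdac8, mostly nuclear), class IIa (Hdac4, Hdac5, Hdac7 and Hdac9, which move between nucleus and cytoplasm and bind MEF2 transcription factors) and class IIb (Hdac6 and Hdac10, mostly cytoplasmic). Sirt1 belongs to a separate family, the sirtuins, which need NAD in place of zinc. The comparison asks whether transcripts of the zinc-dependent enzymes differ between fibroblasts with different Sirt1 genotypes.

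Each probe is a 60-base oligonucleotide, so a level describes the stretch of transcript it pairs with. Positions are given as in the array files, on mouse build mm7. Exons and UTRs are not assigned, since gene models for mm7 were not used here. The sequences of 5 probes are shown because they read different stretches of 1 gene (Hdac8 and Hdac9) or the measured stretch of Hdac2. The first Hdac8 probe spans 94904 bases of chromosome X in these coordinates, so its 60 bases are not contiguous in the genome, while the second lies in an unbroken stretch. The first Hdac9 probe shown lies toward the end of the gene and the second toward its start. The coordinates of the Hdac2 probe span 135 bases, so its 60 bases are not contiguous either. Those of the first Hdac9 probe shown span 32 bases and cannot hold all 60.
Hdac2 A_51_P116007, chr10:36774774-36774908, plus strand: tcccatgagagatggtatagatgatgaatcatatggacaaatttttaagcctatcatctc
Hdac8 A_52_P464062, chrX:97635086-97729989, minus strand: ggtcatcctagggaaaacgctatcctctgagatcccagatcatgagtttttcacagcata
Hdac8 A_51_P481191, chrX:97832340-97832399, minus strand: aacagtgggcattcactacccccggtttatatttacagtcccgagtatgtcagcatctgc
Hdac9 A_52_P76792, chr12:31891246-31891277, minus strand: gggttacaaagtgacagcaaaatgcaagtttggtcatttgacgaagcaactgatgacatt
Hdac9 A_51_P204031, chr12:32232465-32232524, minus strand: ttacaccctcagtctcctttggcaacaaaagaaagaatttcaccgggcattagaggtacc

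Levels are log2 of the scanner's processed signal relative to the 75th percentile of the array, so 0 stands for that percentile, and levels of different probes are not set against each other. At 1 Sirt1 probe (A_51_P141152) the level was 0.06 to 0.52 on the WT arrays, 0.33 to 0.39 on the Het arrays and −0.75 to −0.19 on the KO arrays. KO cells had 56.4% of the WT signal (limma adjusted p = 0.0361, exact permutation p = 0.0286), and at a second Sirt1 probe KO and WT differed by 0.02 (limma adjusted p = 0.982). Dropping single arrays ended the call at the first probe in 9 of 12 cases (limma adjusted p 0.0568 to 0.144); it held when WT, Het or KO replicate 3 was the dropped array. With slide as a block its adjusted p was 0.179 in limma. Of 14 fibroblast markers, 14 were well above background on all 12 arrays. The arrays numbered 3 tended to correlate less with the other arrays of their genotype. Pooled over the 3 genotypes, arrays of the same genotype correlated at r = 0.969 to 0.998 over tested probes without them. Pairs that include one were at 0.923 to 0.970, so the 2 ranges just overlap. WT replicate 3 also went against its label, with Xist at −2.94 against 1.66 to 3.42 on the other 11 arrays and the Y-linked gene Ddx3y at 1.04 against −10.16 to −4.35. It was kept in the group its label gives, and results are also given without it and without all 3 arrays numbered 3.

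No HDAC transcript passed the test between any pair of genotypes on all 12 arrays. A probe entered the test if every array of some genotype showed it well above background, which held for 12 of the 15 HDAC probes and 25601 probes in all, and was called at a limma adjusted p under 0.05 over all of them. In Het against WT, 0 of the 12 were called, where 1.09% of all tested probes were. In KO against WT, 0 of 12 were called against 1.5%, and in KO against Het, 0 of 12 against 0.816%. At an unadjusted limma p under 0.05 the counts were 5, 2 and 2 of 12, against 15.9%, 16.3% and 11.3% of all tested probes. The arrays of the 2 genotypes did not overlap at 3, 2 and 2 of the 12, against 8.66%, 8.64% and 9.92% of tested probes. These comparisons share arrays, so their values are given side by side and not as separate evidence.

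The median HDAC probe differed by 0.19 (log2) in Het against WT, with 9 of 12 higher, where the median over all tested probes was 0.02 and 52.5% were higher. In KO against WT it differed by 0.23, with 8 of 12 higher, against 0.04 and 55.1% over all tested probes. In KO against Het it differed by −0.13, with 5 of 12 higher, against 0.00 and 50% over all tested probes. Probes passed the filter through the genotype where they were bright enough, so these medians describe the tested probes only. Without scaling between arrays, each of the 12 differences moved by the same amount, −0.24 in Het against WT, 0.02 in KO against WT and 0.25 in KO against Het. By class, the class I probes were higher in KO than in WT at 5 of 5, with 0 called. The counted class IIa probes were higher in Het than in WT at 4 of 4 and lower in KO than in Het at 4 of 4, with 0 called in each. The 2 Hdac7a probes, also class IIa but not counted, differed by 0.01 and −0.07 in Het against WT. In KO against Het they differed by −0.34 and −0.47. The sign in Het against WT also varied with the fit. Hdac9 A_51_P204031 was at −0.09 without the 3 arrays numbered 3, and Hdac4 at −0.18 with slide as a block. Some of the counted probes read the same gene (Hdac8 in class I, Hdac9 in class IIa), so the counts are not of separate genes. The 3 class IIb probes had medians between −0.09 and −0.01 in all 3 comparisons.

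**Figure D1:**
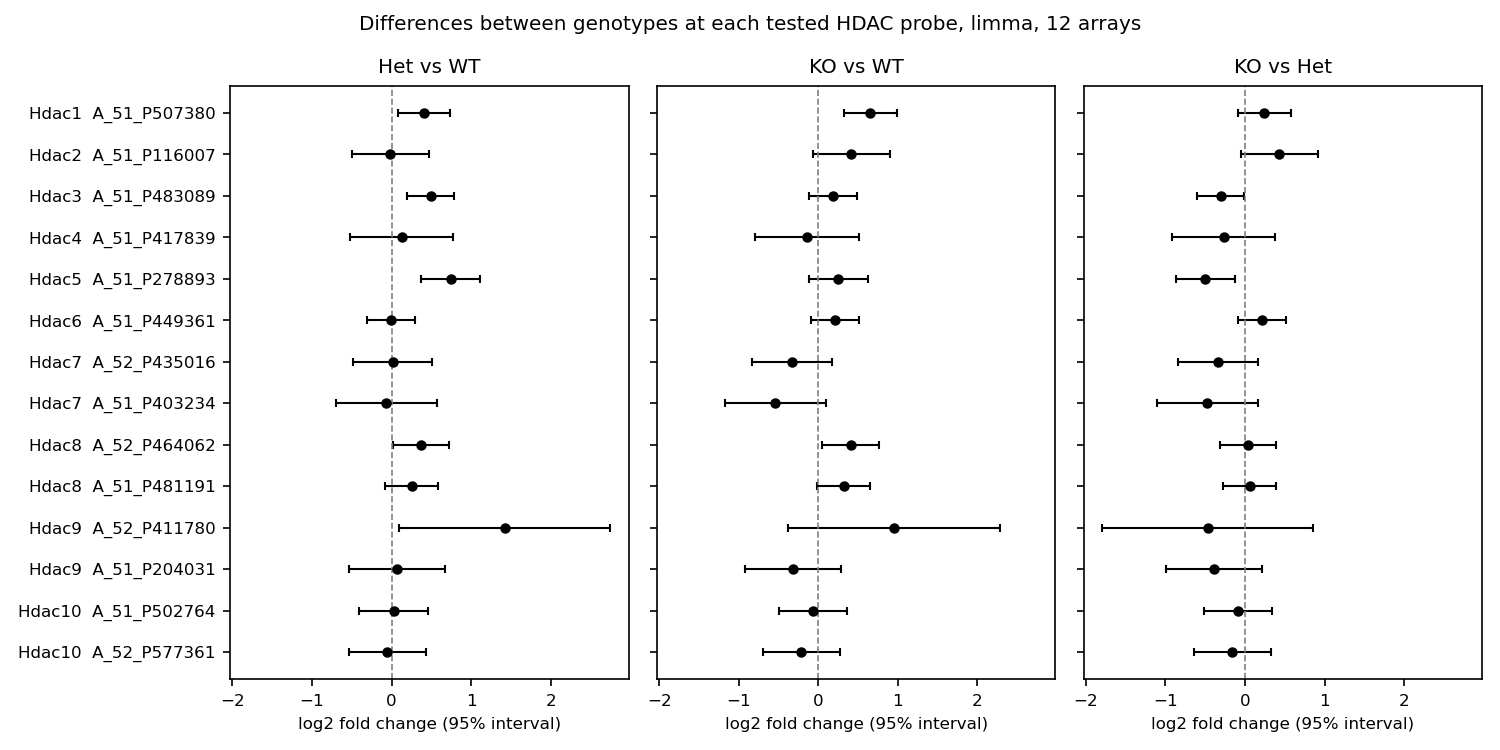
Differences between genotypes for every tested HDAC probe, with the 2 Hdac7a probes of the array shown as Hdac7. Points are log2 fold changes from the limma fit of 12 arrays (x axis), bars are 95% intervals before any correction for multiple tests, and the dashed line marks no difference. Hdac5 in Het against WT (0.75) and Hdac1 in KO against WT (0.66) lie among the farthest from 0 relative to their bars, and the bar of the Hdac9 probe A_52_P411780 is the widest in each comparison.

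Hdac1, a class I enzyme that works as the catalytic subunit of the Sin3, NuRD and CoREST repressor complexes, was lowest in WT and highest in KO cells. Its probe (A_51_P507380, chromosome 4, 128960910 to 128960981, minus strand) read 3.43, 3.84, 3.60 and 3.79 on WT replicates 1, 2, 3 and 5. It read 3.99, 3.97, 4.13 and 4.20 on Het replicates 2, 3, 4 and 5, and 4.05, 4.32, 4.52 and 4.39 on the KO replicates of the same numbers. Every WT array lay below every Het and KO array, while Het and KO overlapped. KO exceeded WT by 0.66 (SE 0.15, 95% interval 0.33 to 0.99), a 1.58-fold difference that missed the threshold (limma adjusted p = 0.0568, exact two-sided permutation p = 0.0286, the smallest that 4 against 4 arrays allow). Het exceeded WT by 0.41 (SE 0.15, limma adjusted p = 0.218, exact p = 0.0286), and KO exceeded Het by 0.25 (SE 0.15, limma adjusted p = 0.606, exact p = 0.0857). On unscaled signals these 2 differences were 0.17 (limma adjusted p = 0.665) and 0.50 (limma adjusted p = 0.266), so where Het lies between WT and KO depends on the scaling. Hdac1 was the only HDAC probe of the 12 with all WT arrays below all others, an arrangement held by 1.84% of tested probes. In bulk RNA such a difference in signal cannot be told apart from a different mix of cells.

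On the slides that hold both KO and WT, the Hdac1 difference was 0.34 on slide 3 (1 KO and 2 WT arrays) and 0.67 on slide 4 (2 KO and 1 WT). Its sign there was fixed by the lack of overlap, so only its size is informative. With slide as a block the difference was 0.52 (limma adjusted p = 0.259). Without WT replicate 3 it was 0.63 and passed the test (limma adjusted p = 0.0315), as it did without the 3 arrays numbered 3 (0.63, SE 0.18, adjusted p = 0.0429). Many more probes passed in those fits, 9.25% of all tested probes without WT replicate 3 and 15.4% without the 3 arrays. The 1 HDAC probe of 12 called in KO against WT in each of them is therefore near the background.

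Hdac2, the close relative of Hdac1 in the same complexes, was read by the first sequence printed above. Its levels were −0.43, −0.29, 0.09 and −0.40 in WT, −0.83, −0.02, −0.22 and −0.02 in Het, and 0.14, −0.24, 0.39 and 0.36 in KO, in the order of the replicate numbers. The array numbered 3 was the highest in WT and Het and the lowest in KO, and the genotypes overlapped. KO exceeded WT by 0.42 (SE 0.22, 95% interval −0.07 to 0.90, limma adjusted p = 0.388, exact p = 0.0571). Without the 3 arrays numbered 3 that difference was 0.67 (SE 0.21, limma adjusted p = 0.0642), over 1.5 times as large. Het and WT differed by −0.01 (95% interval −0.50 to 0.47). The second Hdac2 probe (A_52_P46504) was well above background on 3 of 12 arrays, 1 in each genotype, and was not tested. These 3 are the arrays numbered 5, all on slide 4, and their levels (−7.46 to −7.20) lay within those of the other arrays. On slide 4 the lowest level counted as well above background was −8.36 to −7.75, against −6.26 to −5.49 on the other slides.

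Hdac3, the class I enzyme of the NCoR and SMRT complexes, was highest in Het cells. Its probe (A_51_P483089, chromosome 18) read 2.17, 2.57, 2.62 and 2.46 in WT, 3.00, 3.01, 2.88 and 2.90 in Het, and 2.58, 2.57, 2.71 and 2.70 in KO. Every Het array lay above every WT and KO array, and WT and KO overlapped. Het exceeded WT by 0.49 (SE 0.14, 95% interval 0.20 to 0.79), which missed the threshold (limma adjusted p = 0.111, exact p = 0.0286). KO was below Het by 0.31 (−0.31, SE 0.14, limma adjusted p = 0.428, exact p = 0.0286), and KO and WT differed by 0.19 (limma adjusted p = 0.551, exact p = 0.114). Within slides, Het exceeded WT by 0.41 on slide 3 (1 Het and 2 WT arrays) and 0.43 on slide 4 (1 Het and 1 WT), a sign that the lack of overlap had fixed. With slide as a block Het exceeded WT by 0.42 (limma adjusted p = 0.367). On unscaled signals Het and WT differed by 0.25 (limma adjusted p = 0.554), where the median over all tested probes was itself −0.21, and KO and Het by −0.05 (limma adjusted p = 0.911).

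Hdac8, a class I enzyme that acts outside the large repressor complexes and deacetylates the cohesin subunit Smc3, was read by 2 probes in different parts of the gene. At the first Hdac8 sequence the levels were −0.88, −0.72, −0.46 and −0.63 in WT, −0.03, −0.26, −0.41 and −0.49 in Het, and −0.20, −0.53, −0.29 and −0.04 in KO. At the second they were −2.56, −2.47, −2.42 and −2.32 in WT, −1.94, −2.45, −2.11 and −2.24 in Het, and −2.11, −2.31, −2.20 and −1.87 in KO. Both probes had their lowest mean in WT and followed each other over the 12 arrays (Pearson r = 0.83, Spearman rho = 0.80, as a description of probes that share their arrays and gene). KO exceeded WT by 0.41 (SE 0.16, limma adjusted p = 0.241, exact p = 0.0571) at the first and 0.32 (SE 0.15, limma adjusted p = 0.331, exact p = 0.0286) at the second. At the second, every KO array lay above every WT array. Het exceeded WT by 0.37 (limma adjusted p = 0.293) and 0.26 (limma adjusted p = 0.44), and KO and Het differed by 0.04 and 0.06, with intervals from −0.32 to 0.39 and −0.27 to 0.39. Hdac1 and the 2 Hdac8 probes are the 3 of 12 whose means ran WT, Het, KO in rising order, as 18.8% of tested probes did.

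**Figure D2:**
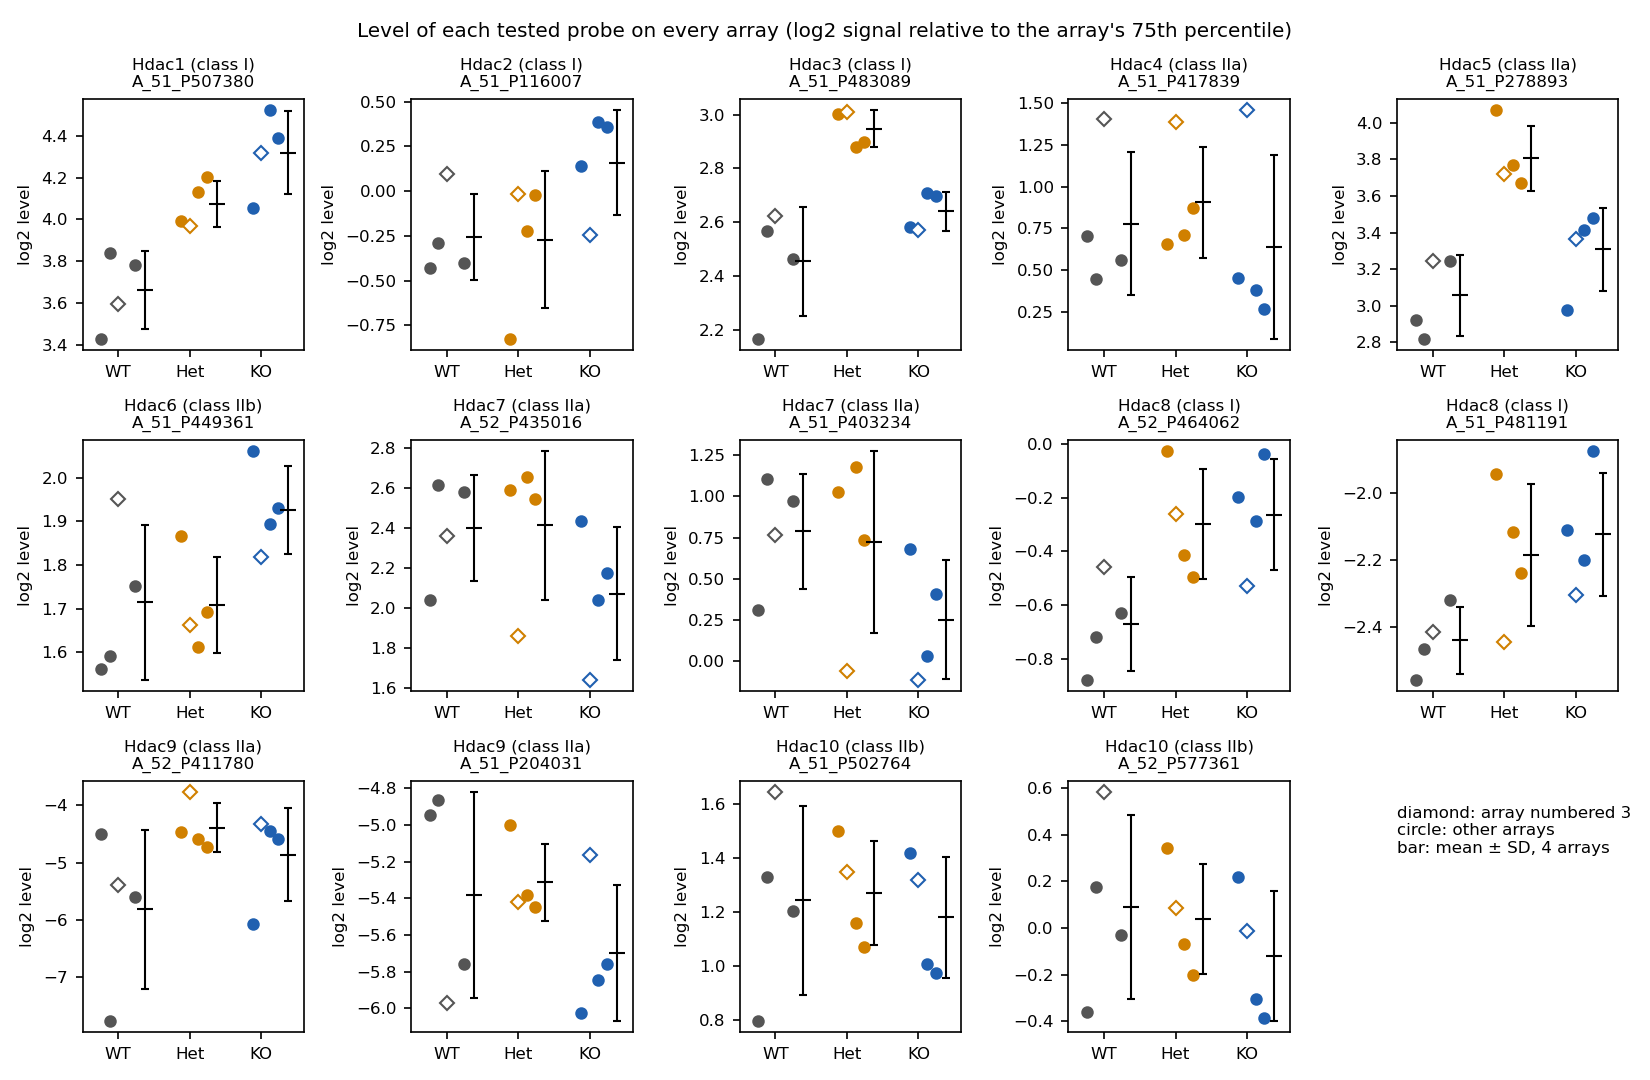
Level of each tested HDAC probe on every array, as log2 signal relative to the array's 75th percentile, by genotype. Each panel has its own y axis, diamonds are the arrays numbered 3, and bars are mean ± SD over 4 arrays. The WT arrays of Hdac1 sit at 3.43 to 3.84, below all Het and KO arrays, the Het arrays of Hdac3 and Hdac5 sit above the others, and the Hdac4 diamonds sit at 1.38 to 1.45 in all 3 genotypes.

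Among the class IIa genes, Hdac5, a repressor of MEF2 targets that leaves the nucleus once kinases phosphorylate it, was highest in Het cells. Its probe (A_51_P278893, chromosome 11, 102304793 to 102304852, minus strand) read 2.92, 2.82, 3.25 and 3.24 in WT, 4.07, 3.72, 3.77 and 3.67 in Het, and 2.98, 3.36, 3.41 and 3.48 in KO. Every Het array lay above every WT and KO array, as at Hdac3, and WT and KO overlapped. These 2 of 12 HDAC probes share that arrangement with 1.08% of tested probes. Het exceeded WT by 0.75 (SE 0.17, 95% interval 0.38 to 1.12), a 1.68-fold difference that missed the threshold (limma adjusted p = 0.0642, exact p = 0.0286). KO was below Het by 0.50 (−0.50, SE 0.17, limma adjusted p = 0.273, exact p = 0.0286), and KO and WT differed by 0.25 (limma adjusted p = 0.515, exact p = 0.171). On unscaled signals KO and Het differed by −0.24 (limma adjusted p = 0.615).

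The size of the Hdac5 difference between Het and WT varied by slide, with 1.03 on slide 3 and 0.43 on slide 4. With slide as a block it was 0.70 (limma adjusted p = 0.291). Without WT replicate 3 it was 0.81 and passed (limma adjusted p = 0.0206), together with Hdac3 (0.55, adjusted p = 0.0304), which makes 2 of 12 HDAC probes where 7.83% of all tested probes passed, and in KO against Het 0 of 12 passed where 1.76% did. Without the 3 arrays numbered 3, Hdac5 passed at 0.84 (SE 0.20, limma adjusted p = 0.0298) and Hdac3 did not (0.53, adjusted p = 0.0528), which makes 1 of 12 against 10.2%.

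**Figure D3:**
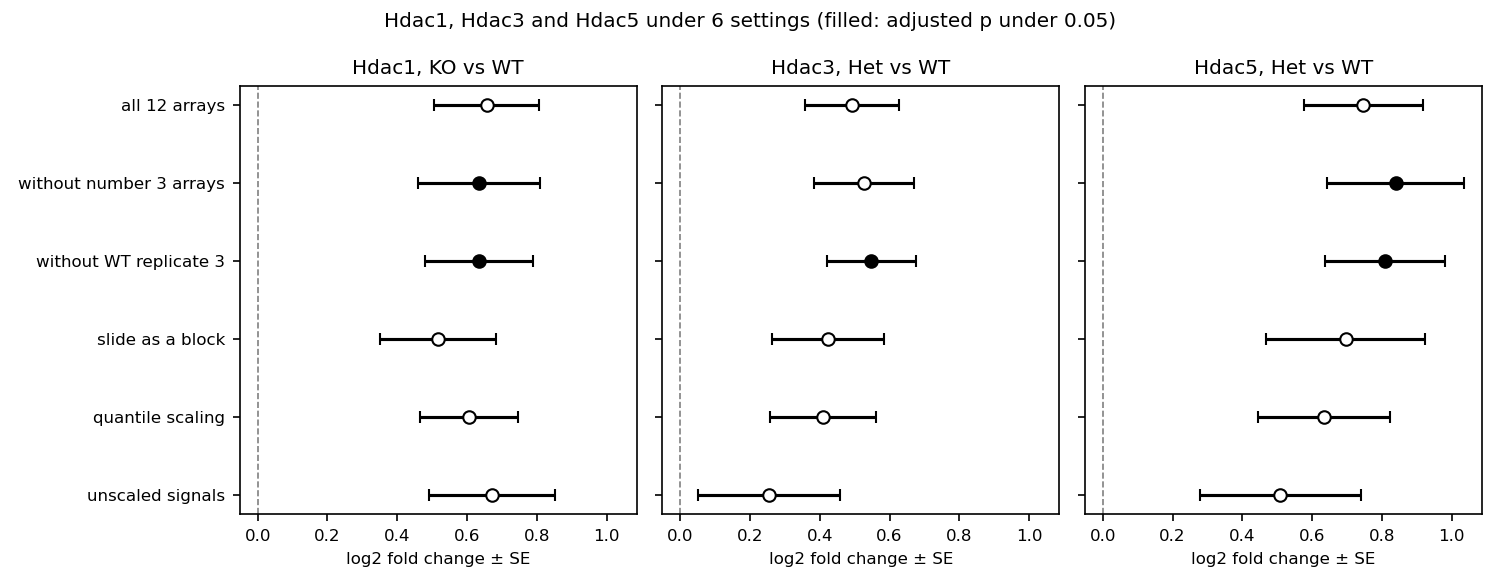
Hdac1 in KO against WT, and Hdac3 and Hdac5 in Het against WT, under 6 settings (y axis). Points are log2 fold changes and bars their SE from limma, and a filled point has an adjusted p under 0.05. All points lie above 0, Hdac1 and Hdac5 are filled without the arrays numbered 3 and without WT replicate 3, Hdac3 is filled only without WT replicate 3, and on unscaled signals Hdac3 lies at 0.25.

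Hdac4, the class IIa enzyme known for restraining cartilage and muscle gene programs, separated the arrays by number and not by genotype. Its probe (A_51_P417839, chromosome 1) read 1.40 on WT replicate 3, 1.38 on Het replicate 3 and 1.45 on KO replicate 3. The other 9 arrays read 0.27 to 0.87. It was the only one of the 12 tested HDAC probes with the array numbered 3 above every other array of its genotype in all 3 genotypes, an arrangement held by 6.88% of tested probes. Het and WT differed by 0.13 (95% interval −0.52 to 0.78, limma adjusted p = 0.871), and KO and WT by −0.14 (95% interval −0.79 to 0.51, limma adjusted p = 0.877). Without the 3 arrays numbered 3, KO was below Het by 0.38 (−0.38, SE 0.14, limma adjusted p = 0.145), against −0.27 with them (SE 0.30, limma adjusted p = 0.81).

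Hdac9, a class IIa gene whose transcripts include a shorter form (MITR) that codes for no deacetylase domain, was read by 4 probes along chromosome 12. From the start of the gene, A_51_P204031 was well above background on 12 of 12 arrays and A_52_P411780 on 11 of 12. Across a gap of 320 kb, A_51_P255467 was well above background on 4 of 12 arrays (KO replicate 3 and otherwise arrays of slide 4) and A_52_P76792 on 0 of 12. The first pair carries an mRNA accession that differs from that of the second pair, and which transcript each probe reads was not tested. At A_51_P204031 the levels were −4.95, −4.86, −5.97 and −5.76 in WT, −5.00, −5.42, −5.38 and −5.45 in Het, and −6.02, −5.17, −5.84 and −5.76 in KO, so the genotypes overlapped. At A_52_P411780 they were −4.50, −7.77, −5.39 and −5.60 in WT, −4.47, −3.77, −4.59 and −4.73 in Het, and −6.07, −4.32, −4.45 and −4.59 in KO. Here WT replicate 2 was not well above background, so the mean difference of 1.42 between Het and WT (SE 0.61, limma adjusted p = 0.282, exact p = 0.0857) rests partly on a signal near background.

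**Figure D4:**
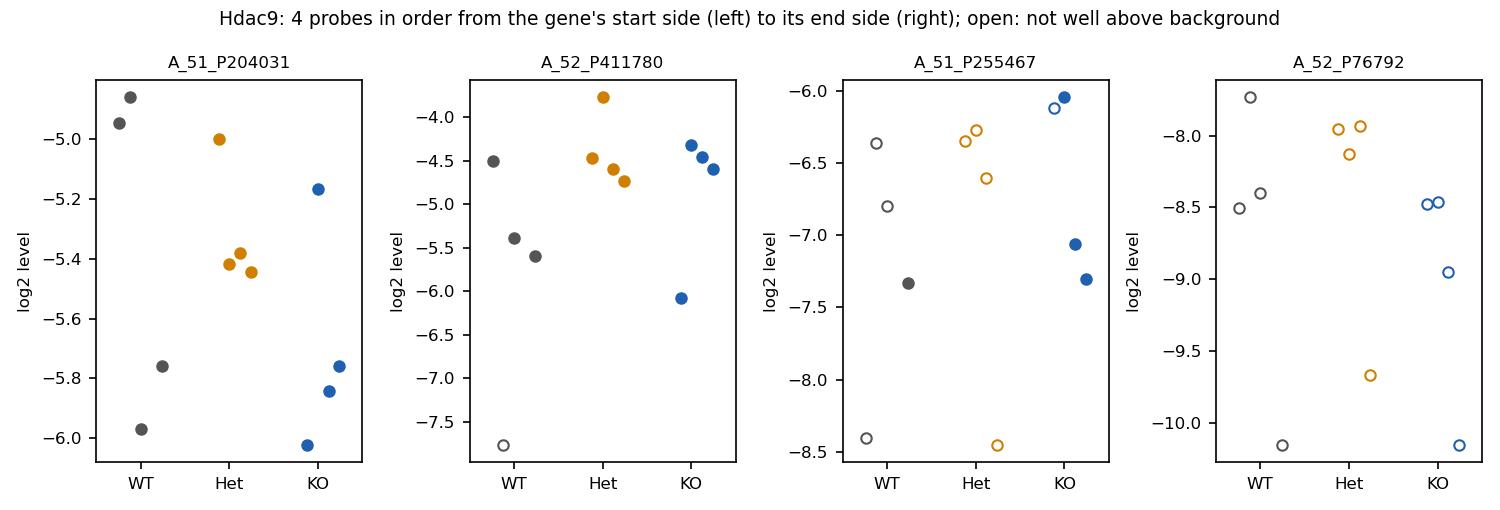
The 4 Hdac9 probes in order from the start side of the gene (left) to its end side (right), with the log2 level on each array by genotype and an own y axis for each probe. Filled points are well above background and open points are not. The 2 left panels hold 12 and 11 filled points and the 2 right panels 4 and 0.

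The 2 probes that the array names Hdac7a, which read the class IIa gene Hdac7 on chromosome 15, followed each other closely (Pearson r = 0.97, Spearman rho = 0.98 over 12 arrays, a description). At A_52_P435016 the levels were 2.04, 2.62, 2.36 and 2.58 in WT, 2.59, 1.86, 2.66 and 2.55 in Het, and 2.44, 1.64, 2.04 and 2.18 in KO. Replicate 3 was the lowest in Het and in KO at both probes and lay within the other arrays in WT. KO was below WT by 0.33 (−0.33, SE 0.23, limma adjusted p = 0.532) and by 0.54 (−0.54, SE 0.29, limma adjusted p = 0.394) at A_51_P403234, and neither passed.

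The class IIb probes had median differences near 0. Hdac6, which deacetylates tubulin and cortactin in the cytoplasm and binds ubiquitin, was read by A_51_P449361 on chromosome X at 1.56, 1.59, 1.95 and 1.75 in WT, 1.87, 1.66, 1.61 and 1.69 in Het, and 2.06, 1.82, 1.89 and 1.93 in KO. KO exceeded WT by 0.21 (95% interval −0.09 to 0.51, limma adjusted p = 0.491), and Het and WT differed by −0.01 (95% interval −0.30 to 0.29). Hdac10, known as a polyamine deacetylase, was read by 2 probes on chromosome 15 that also followed each other (Pearson r = 0.97, Spearman rho = 0.99 over 12 arrays, a description). At A_52_P577361 the levels were −0.36, 0.18, 0.58 and −0.03 in WT, 0.34, 0.09, −0.07 and −0.20 in Het, and 0.22, −0.01, −0.31 and −0.39 in KO, so the genotypes overlapped. They differed there by −0.05 in Het against WT and −0.21 in KO against WT (limma adjusted p = 0.937 and 0.703). At A_51_P502764, with 0.80 to 1.64 on the WT arrays, Het and WT differed by 0.03 (95% interval −0.40 to 0.46), and KO and WT by −0.06 (95% interval −0.49 to 0.37).

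HDACs work with partner proteins. The genes called partner genes here also include regulators and substrates of HDACs, the acetyltransferases that oppose them, readers of acetyl-lysine and Hdac11. Of the 98 listed, 97 were on the array and tested, some of them in more than 1 list. In Het against WT and in KO against WT, 0 of the 97 were called, and in KO against Het 1 was called, beside the 1.09%, 1.5% and 0.816% of all tested probes. The one called gene was Camk2b, a subunit of a calcium-dependent kinase that phosphorylates class IIa HDACs. Its levels were −3.50, −3.16, −3.56 and −2.58 in WT, −1.30, −2.68, −1.52 and −1.68 in Het, and −3.84, −3.78, −3.45 and −3.51 in KO. Camk2b fell by 1.85 from Het to KO (SE 0.30, 3.6-fold, limma adjusted p = 0.018), with every Het array above every KO array. The call was lost without Het replicate 2, 4 or 5 or KO replicate 2, 4 or 5 (limma adjusted p 0.0532 to 0.0805), and with normexp background correction (0.144). Kinases of class IIa HDACs as a list had 5 of 14 higher and a median of −0.11 in this comparison.

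Among the repressor complexes, the 15 tested genes of the Sin3 complex had a median of 0.18 in KO against WT, with 11 higher and 0 called. Its member Arid4b, a chromatin-binding subunit, differed by 0.50 (SE 0.15, limma adjusted p = 0.127). The 9 CoREST genes had a median of 0.30 in Het against WT with 9 higher and 0 called, and 0.16 in KO against WT with 8 higher. Its corepressor Rcor2 averaged 2.43 ± 0.39 on WT arrays, 3.36 ± 0.22 on Het arrays and 3.39 ± 0.36 on KO arrays (mean ± SD, n = 4), and KO exceeded WT by 0.96 (SE 0.23, limma adjusted p = 0.0701). The 12 NuRD genes had medians of −0.03 in Het against WT and 0.04 in KO against WT, and the histone-binding subunit Rbbp4 differed by 0.37 in Het against WT (limma adjusted p = 0.279). The 6 NCoR and SMRT genes had medians of 0.00 and 0.10, and Coro2a, an actin-binding member, differed by −1.84 in KO against Het (SE 0.73, limma adjusted p = 0.364), with KO replicate 3 at −1.49 and the other KO arrays at −5.51 to −4.66. The 3 genes of the MiDAC complex had medians of −0.11 and −0.20, and its subunit Dnttip1 differed by 0.36 in Het against WT (limma adjusted p = 0.289).

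Of the 4 MEF2 factors that class IIa HDACs bind, 0 were called. Mef2c, a regulator of muscle and heart genes, read −1.33, −2.80, −1.39 and −2.67 on the WT arrays, −2.65, −0.39, −2.29 and −1.69 on the Het arrays, and −0.30, −0.02, 0.34 and −0.14 on the KO arrays. All KO arrays lay above all WT arrays, by 2.01 on average (SE 0.48, 4.03-fold, limma adjusted p = 0.0656). The 14-3-3 proteins, which hold phosphorylated class IIa HDACs in the cytoplasm, had a median of −0.11 in KO against WT over 7 genes, with Ywhab at −0.38 (SE 0.12, limma adjusted p = 0.162). The 11 substrates and cofactors of Hdac6 had medians of 0.01 in Het against WT and −0.03 in KO against WT, and Plaa, a ubiquitin-binding protein, differed by 0.47 in KO against Het (limma adjusted p = 0.325). The 13 histone acetyltransferases, which add the mark that HDACs remove, had medians of 0.02 and 0.13, with Kat8 (Myst1 on the array) at 0.58 in Het against WT (SE 0.17, limma adjusted p = 0.136). The 4 bromodomain readers of acetyl-lysine had a median of 0.35 in KO against WT with 4 higher, and Brdt differed by 0.73 in Het against WT (limma adjusted p = 0.242). Hdac11, the class IV enzyme, differed by 0.87 in Het against WT (SE 0.38, limma adjusted p = 0.296).

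Without the 3 arrays numbered 3, 9, 14 and 5 of the 97 partner genes were called in Het against WT, KO against WT and KO against Het. These are 9.28%, 14.4% and 5.15%, where 10.2%, 15.4% and 7.82% of all tested probes were called. The share of partner genes was below that of all tested probes in each comparison, so the calls describe single genes and not the lists. Only part of the called genes are named here. Mef2c was then called in KO against WT (2.23, SE 0.41, limma adjusted p = 0.00837) and in KO against Het (2.17, adjusted p = 0.0133). Another MEF2 factor, Mef2d, was called in the opposite direction in KO against WT (−0.59, limma adjusted p = 0.0154) and KO against Het (−0.67, adjusted p = 0.0125). Mef2b was called as higher in Het than in WT (1.10, limma adjusted p = 0.0436). Camk2b was called in Het against WT (1.58, adjusted p = 0.00526) and in KO against Het (−2.10, adjusted p = 0.00118). Rcor2 and Kat8 were called as higher in both Het and KO than in WT, Rcor2 by 0.97 and 1.06 and Kat8 by 0.69 and 0.61. Coro2a was called as lower in KO than in WT (−2.58) and in Het (−2.91). Hdac11 was called in Het against WT (1.17, limma adjusted p = 0.0438), and Arid4b (0.64, adjusted p = 0.0212) and Brdt (0.96, adjusted p = 0.0447) in KO against WT.

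**Figure D5:**
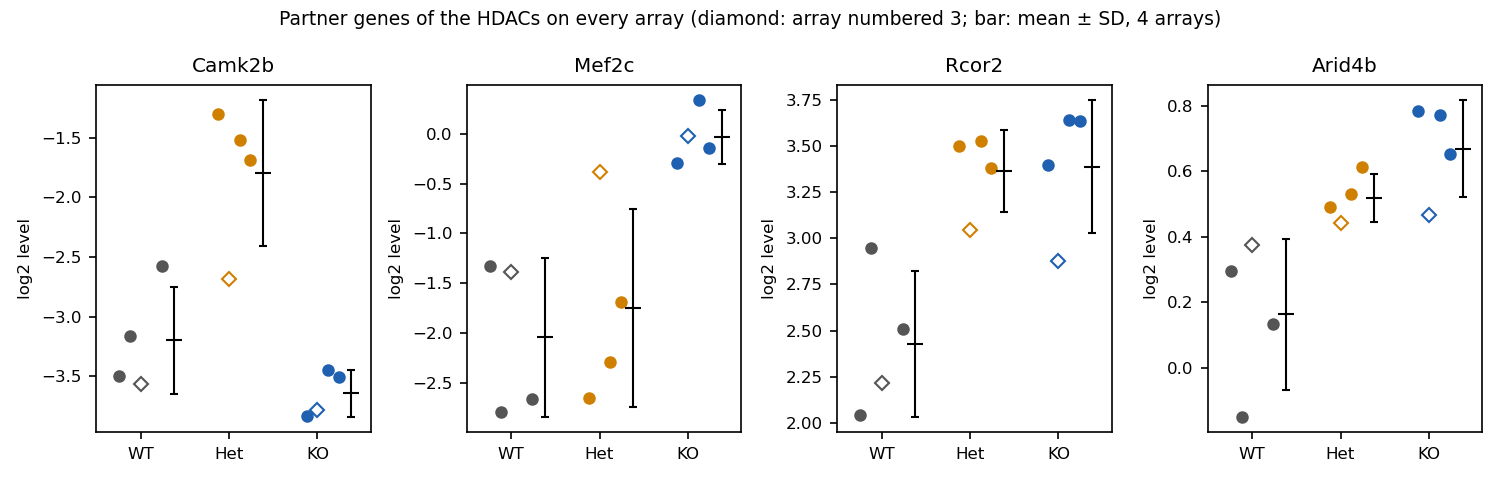
Levels of 4 HDAC partner genes on every array, as log2 signal relative to the array's 75th percentile, by genotype, each with its own y axis. Diamonds are the arrays numbered 3 and bars are mean ± SD over 4 arrays. The Camk2b arrays of Het (−2.68 to −1.30) lie above those of KO (−3.84 to −3.45), and the Mef2c arrays of KO (−0.30 to 0.34) lie above those of WT (−2.80 to −1.33).

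Levels of some markers of other cells also differed between the genotypes, in both directions. Of 8 epithelial markers, 4 were well above background on all 12 arrays and 7 were tested. In Het against WT and KO against WT, 1.09% and 1.5% of all tested probes were called. Of the 7 markers, 1 was called in Het against WT (Krt8, 3.36, SE 0.61, limma adjusted p = 0.034) and 1 in KO against WT (Epcam, 1.59, SE 0.34, limma adjusted p = 0.047). Each of these 2 genes was well above background on 1 of 4 WT arrays and entered the test through a genotype where it was high, so its fold rests partly on signals near background and its call is given as a description. Of the 7 tested epithelial markers, 6 were higher in Het than in WT (median difference 0.46) and 5 were higher in KO than in WT (median 1.35). Krt19, well above background on all 12 arrays, had the opposite sign, at −3.18 in Het against WT (limma adjusted p = 0.0615) and −1.62 in KO against WT (limma adjusted p = 0.286). Leaving out single arrays ended the call in 8 of 12 cases for Krt8 (limma adjusted p 0.0579 to 0.121; it held without WT replicate 3 or 5, Het replicate 3 or KO replicate 3) and in 8 of 12 for Epcam (0.0512 to 0.178; it held without WT, Het or KO replicate 3 or Het replicate 4). After normexp background correction the differences were 1.97 for Krt8 (limma adjusted p = 0.128) and 0.91 for Epcam (0.292). The summed epithelial level ranged from 1.49 to 4.18 in WT, 0.24 to 1.81 in Het and 1.71 to 2.52 in KO. Of the 14 fibroblast markers tested, 1 was called in KO against WT and 2 in KO against Het, where 1.5% and 0.816% of all tested probes were. In these comparisons 6 and 4 of the 14 were higher in KO. Thy1 fell by 3.47 from WT to KO (SE 0.30, limma adjusted p = 0.000966) and fell by 2.16 from Het to KO (SE 0.30, limma adjusted p = 0.0105). Dcn fell by 3.21 from Het to KO (SE 0.53, limma adjusted p = 0.0191), while the summed fibroblast level was 9.46 to 9.72 in WT, 9.63 to 9.98 in Het and 9.34 to 9.59 in KO. Thy1 stayed called in both comparisons without any 1 array (limma adjusted p up to 0.00737 and 0.0466), with its second call lost under the replicate block of numbers 2, 3 and 5 (0.0583), and Dcn lost its call without Het replicate 2 or 4 or KO replicate 2 (0.0548 to 0.0824). The endothelial receptor Kdr was well above background on all 12 arrays and differed by −2.34 in Het against WT (limma adjusted p = 0.0654) and −1.61 in KO against WT (limma adjusted p = 0.168). The summed endothelial level was −3.31 to −2.98 in Het, below the −2.05 to −1.02 of WT, and −3.44 to −1.42 in KO. Pecam1 and Tie1 of the 6 endothelial markers, Myf5 of 6 skeletal muscle markers and Dppa3 of 4 germ cell and pluripotency markers were well above background on 0 arrays. The part of these differences in the HDAC values was not tested.

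The genes whose levels followed an HDAC probe most closely were taken, in each class, for the member probe with the largest SD over the 12 arrays among those well above background on all 12, from 19636 probes of named genes that were well above background on all of them. For Hdac2 these were Khdrbs1 (Pearson r = 0.96, Spearman rho = 0.94), Cbx3 (0.95 and 0.95) and Suv39h2 (0.93 and 0.96), and without the 2 arrays farthest from the Hdac2 median r was 0.94, 0.88 and 0.85. For Hdac4 they were Galnt13 (0.97 and 0.97), Bicc1 (0.96 and 0.90) and Klf12 (0.95 and 0.91), with r of 0.94, 0.94 and 0.97 without 2 arrays. Those 2 were WT and KO replicate 3, and Het replicate 3, also high for Hdac4 (1.38), stayed in. Whether these genes follow Hdac4 apart from the arrays numbered 3 was not tested. For Hdac10 (A_52_P577361) they were Brd8 (0.95 and 0.89), Sars2 (0.93 and 0.96) and Haus5 (2310022K01Rik on the array, 0.93 and 0.85), with r of 0.92, 0.88 and 0.86. These are the highest of many correlations over the same 12 arrays and are given as a description.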

How the data were processed

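Per the file headers and the submitters' processing notes, the authors extracted each scanned array with Agilent Feature Extraction 9.5. The deposited values are processed signals, a background-subtracted intensity on a linear scale without scaling between arrays, beside the software's flags of 0 or 1. The deposited series table holds the same intensity (largest relative difference 0). Of 45018 spots, 43379 are not controls. Spots flagged as outliers (62 to 174 an array) were left out, and log2 spots of a probe were averaged. The 75th percentile of each array was subtracted.

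Every tested probe was fitted with limma 3.58.1 (R 4.3.3) as 3 group means over 12 arrays, with Benjamini-Hochberg adjustment over 25601 probes. Non-overlap was counted over the 25590 of them with a value on all 12 arrays. Of 41174 probes, 22972 were named through accessions in a RefSeq table of GRCm38.p6, 6645 by symbol, 3105 by synonym, and 8452 keep the array's name. A partner gene was represented by its tested probe with the highest mean. Exact tests are two-sided over the 70 splits of 4 against 4. The number of arrays limits the precision. The 4 slides were taken from the array files; slide 1 holds Het replicates 3 and 4 and KO replicate 3, slide 2 WT replicate 1, slide 3 WT replicates 2 and 3 with Het and KO replicate 2, and slide 4 the remaining arrays.

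Named partner genes are those called, and in each list of 3 or more tested genes the one with the smallest unadjusted p in any comparison. The members, lists and the leaving out of arrays numbered 3 were chosen with earlier results of these data known. Alternatives concerned scaling, background correction, filters, probes per gene, outlier spots, slide and replicate blocks, the samples fitted and leaving out arrays. The sign of an uncalled probe counted as turned only if it moved by more than its SE. Figures used matplotlib in Python.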

Additional observations from a re-analysis of the deposited data

Results flagged for a closer look

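Of 51 sets of 4 arrays (17 HDAC probes, Hdac7a included, in 3 genotypes), 6 held 1 array whose gap to its nearest neighbour passed Dixon's 95% critical value, where chance alone marks about 1 in 20 sets. Hdac4 on KO replicate 3 read 1.45, against 0.45 on the nearest KO array. The Hdac7a probe A_52_P435016 read 1.86 on Het replicate 3, against 2.55 on the nearest. Hdac9 gave the other 4: A_51_P204031 at −5.00 on Het replicate 2 (nearest −5.38), A_52_P411780 at −6.07 on KO replicate 2 (nearest −4.59), and on Het replicate 5 A_51_P255467 at −8.45 (nearest −6.60) and A_52_P76792 at −9.67 (nearest −8.13), the last 2 not well above background.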

How the results depend on the processing

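The count of called HDAC probes was 0 in all 3 comparisons under every alternative tried except leaving out WT replicate 3 or all arrays numbered 3. Leaving out single arrays gave 0 to 2 HDAC probes in Het against WT and 0 to 1 in KO against WT, and without the 3 arrays numbered 3 there was 1 in each. Of 97 partner genes, 0 to 9, 0 to 7 and 0 to 2 were called in Het against WT, KO against WT and KO against Het when single arrays were left out. Without the arrays numbered 3 they numbered 9, 14 and 5 (9.28%, 14.4% and 5.15%), beside 10.2%, 15.4% and 7.82% of all tested probes. Quantile normalization gave 1 partner gene in Het against WT, and normexp gave 0 in KO against Het.

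Over all probes, 278, 383 and 209 were called, 58, 161 and 88 with normexp, 61, 119 and 87 without a filter, and 58, 72 and 107 with slide as a block. They numbered 55, 137 and 386 when only the 2 genotypes compared were fitted, and 2739, 4133 and 2097 without the arrays numbered 3. Leaving out single arrays gave 40 to 2027, 68 to 2397 and 50 to 526, the highest without WT replicate 3 in the first 2 and without Het replicate 3 in the last. Of the calls, 48.6%, 51.2% and 64.1% were higher, against 17.3% of 162, 46.4% of 153 and 81.8% of 209 on unscaled signals, where the median of all tested probes was −0.21, 0.06 and 0.25.

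Replicate numbers were not taken to pair the samples. Deviations correlated over 0.1 in 5 of 10 same-numbered pairs of different genotypes and in 12 of 38 differently numbered pairs. The arrays numbered 3 did deviate together (3 of 3 pairs, r = 0.20 to 0.40), and the other 7 pairs were at −0.09 to 0.30. Of 11 samples, 3 correlated best with their own number, and these were the arrays numbered 3. With a replicate block, 110, 146 and 218 probes were called over 12 arrays and 6, 12 and 13 over numbers 2, 3 and 5. In both, HDAC probes numbered 0, and the 1 partner gene in KO against Het went to 0 in the second block.

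Only uncalled differences that changed sign and moved by more than their SE are listed here. On unscaled signals they were Hdac10 A_51_P502764 (−0.21 in Het against WT, 0.16 in KO against Het), Hdac10 A_52_P577361 (0.093 in KO against Het) and Hdac7a A_52_P435016 (−0.23 in Het against WT). With slide as a block Hdac4 was at −0.18 in Het against WT, and with normexp Hdac9 A_51_P204031 was at 0.22 in KO against WT and 0.12 in KO against Het. Those on unscaled signals follow from the common shift of −0.24 and 0.25 that leaving out the scaling gives every HDAC probe in these comparisons; the causes of the others were not tested. Hdac1, Hdac3 and Hdac5 kept their sign in 24 of 24 alternatives in each comparison. Of these alternatives, 12 leave out 1 array and cannot turn the sign where 2 genotypes do not overlap. Other genes kept theirs in part of the comparisons, such as Hdac8 in 47 of 47 values in Het against WT and in KO against WT. Hdac2 and Hdac6 did so in 24 of 24 in KO against WT and KO against Het. In Het against WT, Hdac2 kept its sign in 21 of 24 and Hdac6 in 18 of 24, with moves too small to be listed above. A kept sign can go with a small value, as for Hdac3 in KO against Het on unscaled signals (−0.05). Probes near background (Hdac9 and the second Hdac2 probe) carry the least precise values.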
